A study of Homo sapiens with 8 samples.

Results

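The cells described here were the SUM159 cells with the lowest proliferation score among those passaged in palbociclib or in JQ1+palbociclib. Within each of these libraries, cells were selected on a proliferation score, the summed UMIs (counted RNA molecules) of MKI67, TOP2A, CDC20, CCNB1, UBE2C and PCNA divided by the UMI total of the cell. The lowest 25% of cells, 173 of 693 in palbociclib and 256 of 1024 in JQ1+palbociclib, are called low-score cells. They numbered 429 of the 5738 cells of the series and were set against the highest 25% of the same library, called high-score cells, of which there were again 429. The 6 ranking genes were left out of every total and result.

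SUM159 is an established human triple-negative breast cancer line, and its cells carried a lentiviral DNA barcode library (ClonTracer). Apart from the pre-treatment sample, cultures were passaged up to 18 times in DMSO, 100 nM JQ1, 160 nM palbociclib, 0.6 nM paclitaxel, or JQ1 with either partner at those doses. Each of these was sequenced as a single library, except JQ1, which had 2, JQ1-A and JQ1-B. The libraries are grouped here as 2 experiments, JQ1-A with DMSO, paclitaxel and JQ1+paclitaxel, and JQ1-B with palbociclib and JQ1+palbociclib. The library titles do not state this grouping. So grouped, the experiment with palbociclib had no vehicle library. Replicate cultures were pooled before encapsulation, and JQ1+palbociclib had lost a culture during selection, so its library pooled 2.

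Palbociclib blocks CDK4 and CDK6, the kinases that with D-type cyclins phosphorylate RB and so free E2F factors to drive entry into S phase. JQ1 displaces BET bromodomain proteins from acetylated chromatin. In cells that leave the cycle, the DREAM complex with its MuvB core represses genes of G2 and mitosis through a promoter element called the cell cycle genes homology region (CHR), which often lies beside CCAAT boxes bound by NF-Y. Mitotic cyclins and kinases are in addition destroyed and re-made in every cycle, so their transcripts mark cells near division.

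The score set how the cells were chosen, and its values are given as a description. The last low-score cell had 90.9 ranking-gene UMIs per 1000000 UMIs in palbociclib and the next cell outside had 91.2. In JQ1+palbociclib these values were 88.19 and 88.22. At the upper end, the first high-score cell had 634.4 in palbociclib against 628.7 just outside, and 541.9 against 541.4 in JQ1+palbociclib. No UMI of the 6 genes was seen in 61 low-score cells of palbociclib and in 102 of JQ1+palbociclib. The median low-score cell had 1 such UMI in either library, and the median high-score cell 28 and 23.

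Depth and mitochondrial share moved with the rank. Low-score cells had a median of 20149 UMIs in palbociclib and 20172 in JQ1+palbociclib, and high-score cells 25418 and 26427. Median detected genes were 3592 and 3496 in low-score cells and 4428 and 4396 in high-score cells. The median mitochondrial share was 5.79% in low-score and 5.26% in high-score cells of palbociclib, and 7.30% and 6.38% in JQ1+palbociclib. Fewer UMIs in a cell and less RNA in a cell cannot be told apart here. The study's filter (at least 2000 genes and 1 to 15% mitochondrial UMIs) would have removed 14 low-score and 16 high-score cells. Cell barcodes found in more than 1 library numbered 13, of which 1 was shared by the 2 palbociclib libraries, and 3 of the ranked cells were affected.

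The label was checked with genes that the ranking did not use, although all genes of the ranked cells share their depth and their phase with the score. In cells thinned to 10000 UMIs, the G2/M list of Seurat (50 genes without the ranking genes) gave a median of 8 UMIs per low-score cell and 52 per high-score cell in palbociclib. In JQ1+palbociclib the medians were 10 and 49. The middle 50% of low-score cells held 6 to 11 G2/M UMIs in palbociclib and 7 to 14 in JQ1+palbociclib, while high-score cells held 41 to 67 and 39 to 67. The S-phase list (40 genes) gave medians of 4 and 4 UMIs in low-score cells and 10 and 10 in high-score cells. Low-score cells thus held fewer G2/M UMIs than high-score cells, and most of them still had some S-phase UMIs: 7 of 166 thinned cells in palbociclib and 9 of 245 in JQ1+palbociclib had none. How many of these UMIs were free RNA in the droplets was not tested.

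The line was recognisable in both ends of the ranking. VIM was at 3373 counts per 1000000 UMIs (CPM) in low-score and 3307 in high-score cells of palbociclib, and at 3623 and 3401 in JQ1+palbociclib. ESR1, PGR and EPCAM had no UMI in any of these 4 sums. Of 12 listed markers of blood, endothelial and stromal cells, only 6 were among the genes counted. In palbociclib these 6 summed to 45.3 CPM in low-score and 38.9 in high-score cells, of which DCN made 34.6 and 31.7. In JQ1+palbociclib they summed to 6.34 and 4.56 CPM. PTPRC and LUM were at 0, and the part of the other markers in the results was not tested.

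Cells this poor in the ranking genes were also found in other libraries. Over cells thinned to 10000 UMIs, at most 1 UMI of the 6 genes was found in 39.9% of cells in palbociclib (95% exact Clopper-Pearson interval 36.1 to 43.7) and 41.7% in JQ1+palbociclib (38.6 to 44.9). The share was 36.8% (33.5 to 40.1) in JQ1-B, 42.5% (38.7 to 46.4) in JQ1-A and 43.0% (39.1 to 47.1) in JQ1+paclitaxel. It was 11.6% (9.11 to 14.5) before treatment, 12.5% (9.56 to 15.9) in DMSO and 2.17% (1.248 to 3.51) in paclitaxel. The shares of the 5 libraries with JQ1 or palbociclib thus lay above those of the other 3. With no UMI of the 6 genes, JQ1-A had a share of 26.3% (22.9 to 29.8) and JQ1+paclitaxel of 25.2% (21.8 to 28.8), and it lay between 19.0% and 19.5% in JQ1-B, palbociclib and JQ1+palbociclib. Intervals cover counting error only, JQ1 alone had 2 libraries, and the differences between libraries were not tested. Without thinning, the share of cells at or below the palbociclib rank limit was 24.96% in palbociclib, 32.4% in JQ1-A and 33.9% in JQ1+paclitaxel.

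**Figure D1:**
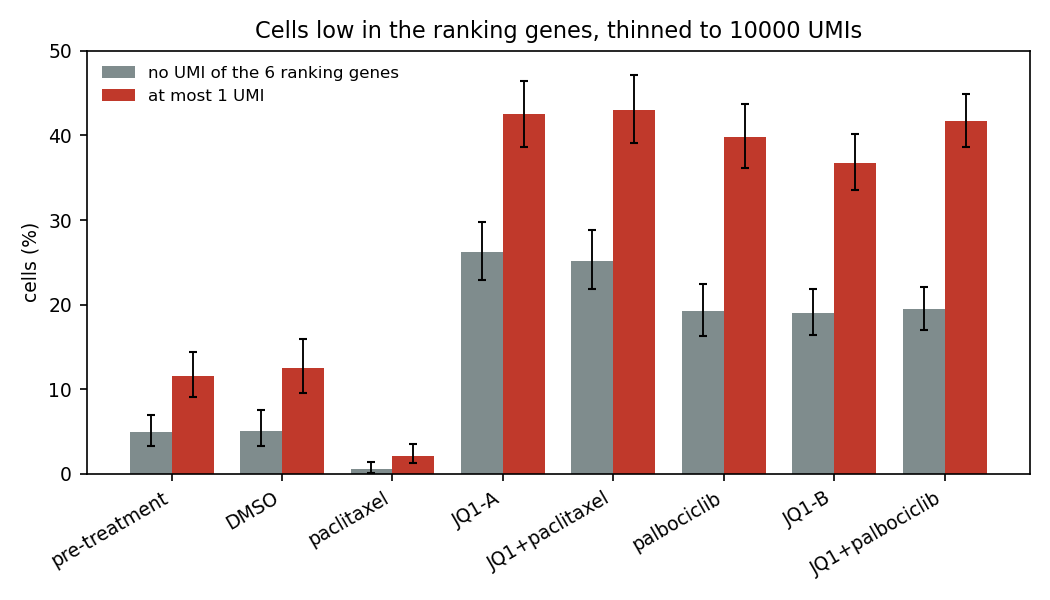
Percent of cells (vertical axis) in each of the 8 libraries with no UMI of the 6 ranking genes (grey) or with at most 1 (red), after thinning each cell to 10000 UMIs. Bars are shares and whiskers are 95% exact intervals for counting error. The 5 libraries with JQ1 or palbociclib sit between 36.8% and 43.0% for at most 1 UMI, and pre-treatment, DMSO and paclitaxel sit between 2.17% and 12.5%.

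UMIs were then summed over the low-score and over the high-score cells of each library, and genes averaging 20 CPM or more over both sums in each library were compared, 4008 genes in all. With 1 library per treatment this comparison has no replicate check, so genes were named by size. A gene was called when the low-score sum was at least 1.5-fold lower, or at least 1.5-fold higher, in both libraries. By this rule 515 genes were lower in low-score cells, 12.8% of those compared, and 18 were higher, which is 0.449%. With every cell thinned to 10000 UMIs and ranked anew, 323 of the 515 and 10 of the 18 were called again. Because the ranking is itself a measure of the cycle, these counts describe the cells that the rule chose. A gene near 0 in low-score cells passed the minimum only through its level in high-score cells, so such genes had to be lower. In the other direction, some genes called higher were under 20 CPM in high-score cells and passed only through low-score cells. SYT12 was at 17.2 CPM in high-score cells of palbociclib and 13.1 CPM in those of JQ1+palbociclib. In JQ1+palbociclib USP53 was at 15.1 CPM and ITGA10 at 15.5 CPM in high-score cells. Taken singly, 707 genes were lower in palbociclib and 851 in JQ1+palbociclib, and 48 and 41 were higher.

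The scale matters for the split between directions. The median gene was at a log2 ratio of -0.23 in palbociclib and -0.26 in JQ1+palbociclib, and a few abundant transcripts had a larger share in low-score cells. FTH1, the heavy chain of the iron store ferritin, was at 49449 CPM in low-score and 30485 CPM in high-score cells of palbociclib, and at 72061 and 50319 CPM in JQ1+palbociclib. The 40 listed ribosomal protein genes together made 225639 and 192089 CPM in palbociclib, and 222547 and 190674 CPM in JQ1+palbociclib. Centred on the median gene, 222 genes were lower and 70 higher in both libraries. Log2 ratios below are on the CPM scale, and the median gene is to be read as their zero.

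**Figure D2:**
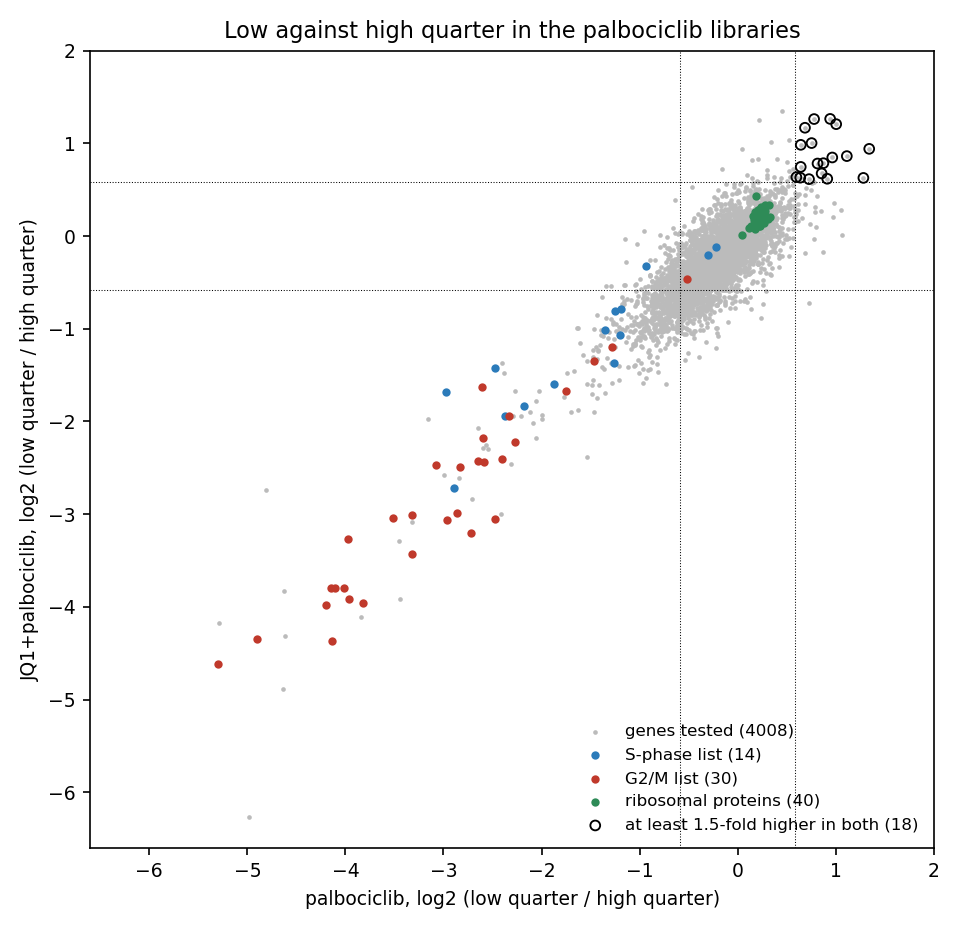
Log2 ratio of low-score to high-score cells in palbociclib (horizontal axis) and JQ1+palbociclib (vertical axis) for 4008 genes (grey points), with genes of the S-phase list (blue), the G2/M list (red), ribosomal proteins (green) and the 18 genes called higher (open circles). Dotted lines mark 1.5-fold. Most G2/M genes lie far below the other lists in both libraries, with medians of -2.91 and -3.03, while ribosomal proteins sit just above 0, with medians of 0.22 and 0.23.

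Among the genes compared, the 12 with the largest drop, ranked by the smaller of the 2 changes, were SPC25, PLK1, CDCA3, CENPA, DEPDC1, ASPM, HMMR, AURKB, AURKA, FAM83D, CCNA2 and NUSAP1. PLK1, the Polo kinase that drives mitotic entry and spindle formation (hg19 chromosome 16, 23688977 to 23701688, plus strand), was at 4.39 CPM in low-score and 109.5 CPM in high-score cells of palbociclib, a ratio of 0.0401 (95% counting interval 0.0228 to 0.0658). In JQ1+palbociclib it was at 2.24 and 66.2 CPM, a ratio of 0.0338 (0.0173 to 0.0596). SPC25, a subunit of the NDC80 complex that ties kinetochores to microtubules, had 7 UMIs in low-score and 286 in high-score cells of palbociclib. In JQ1+palbociclib it had 3 and 302 UMIs, a ratio of 0.0130 (0.00267 to 0.0384).

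AURKA, the Aurora kinase of centrosomes, had ratios of 0.0640 (0.0425 to 0.0929) and 0.0664 (0.0459 to 0.0933). AURKB, the Aurora kinase of the chromosomal passenger complex, had ratios of 0.0547 and 0.0636. CDK1, the kinase of mitotic entry, was at 6.31 and 108.4 CPM in palbociclib and at 6.15 and 85.3 CPM in JQ1+palbociclib. These levels were far below those of high-score cells in both libraries, and no interval came near the 1.5-fold limit.

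The ranking was also followed over 4 bins of 25% of cells each. Most of the ranking genes are themselves G2/M genes, so a high G2/M level in the highest bin is part of how the cells were ordered. PLK1 in palbociclib was at 4.39 CPM in the lowest bin, 5.92 in the second, 26.0 in the third and 109.5 in the highest. AURKA in JQ1+palbociclib went from 6.52 through 7.57 and 17.9 to 98.2 CPM. In these examples the second bin was nearly as low as the lowest, while PLK1 in JQ1+palbociclib went from 2.24 to 7.22 CPM between them. TYMS, which makes thymidylate for DNA synthesis, stood at 24.98, 32.4, 77.0 and 129.5 CPM in palbociclib and 30.2, 46.4, 91.1 and 116.0 CPM in JQ1+palbociclib. RRM2, a subunit of ribonucleotide reductase, stood at 23.7, 49.4, 126.3 and 155.4 CPM in JQ1+palbociclib. Between the third and the highest bin the summed S-phase list went from 1024 to 1205 CPM in palbociclib and from 1130 to 1150 CPM in JQ1+palbociclib. The summed G2/M list went from 2385 to 5678 CPM and from 2573 to 5444 CPM.

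**Figure D3:**
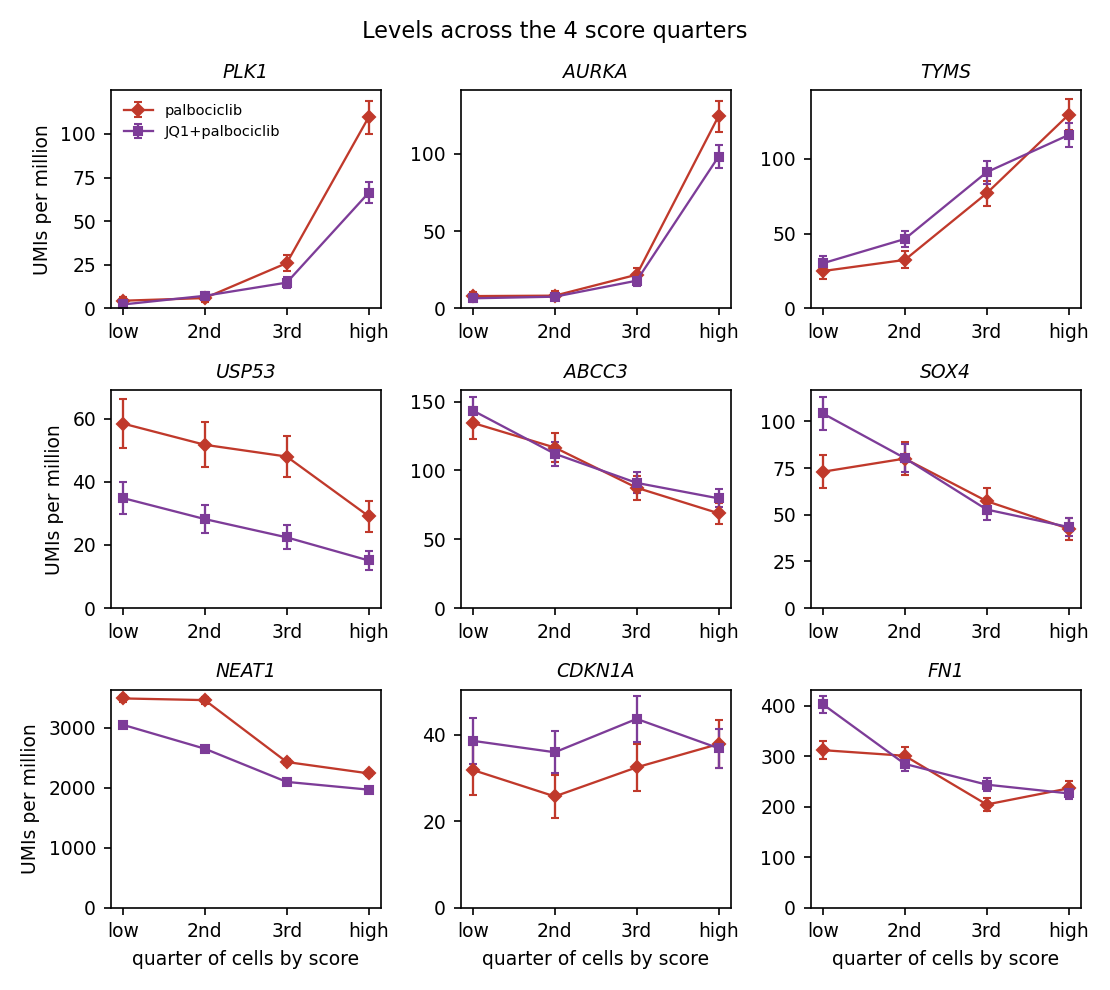
CPM (vertical axes, from 0) of 9 genes in the 4 bins of cells ranked by score (horizontal axes) in palbociclib (red diamonds) and JQ1+palbociclib (purple squares). Whiskers are 95% counting intervals (normal approximation). PLK1 and AURKA stay near 0 up to the second bin, USP53, ABCC3, SOX4 and NEAT1 are lower in the highest bin than in the lowest, and CDKN1A shows no steady trend.

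Promoters of the strongest genes were read from RefSeq (GRCh38.p14), in windows of 300 bases that span 250 bases before to 50 after the start. They were searched on both strands for TTTGAA or TTCGAA (CHR), for CCAAT, and for TTTCCCGC or TTTGGCGC (E2F). Of the 12 strongest genes 10 had a window, and 8 of the 10 held both a CHR and a CCAAT. Both were present in 80 (18.3%) of the 437 windows matched to the 515 lower genes, in 184 (5.49%) of 3350 windows of all genes compared, and in 6.58% of the 27305 windows of the whole table. In the lower genes of the S-phase and G2/M lists the share was 18 of 34 windows, and in the lower genes outside these lists 62 of 403. Being outside the lists does not make a gene unrelated to the cycle, as PLK1, SPC25 and CCNA2 are in neither. Of the 10 windows of genes called higher, 2 held a CHR (11.3% of those of all genes compared), 4 a CCAAT (38.1%) and 0 both. An E2F match was found in 5.49% of windows of lower genes and 3.73% of those of all genes compared. These are letter matches, and no binding was measured.

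The 150 bases before the start of PLK1, DEPDC1 and CENPA are printed to show how the elements lie in genes of the strongest group, and those of PLK2, a gene called higher, as a window with neither element. Other genes called higher do hold one, such as a CCAAT in USP53, ITGA10, NABP1 and SOX4. Capitals mark CHR and CCAAT matches on either strand. PLK1 is chr16:23678739-23678888 (plus strand), DEPDC1 chr1:68497083-68497232 (minus), CENPA chr2:26785906-26786055 (plus) and PLK2 chr5:58460087-58460236 (minus).
PLK1: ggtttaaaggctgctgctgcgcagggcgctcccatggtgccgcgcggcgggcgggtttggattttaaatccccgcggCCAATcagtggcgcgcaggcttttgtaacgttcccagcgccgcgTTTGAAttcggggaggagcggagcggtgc
DEPDC1: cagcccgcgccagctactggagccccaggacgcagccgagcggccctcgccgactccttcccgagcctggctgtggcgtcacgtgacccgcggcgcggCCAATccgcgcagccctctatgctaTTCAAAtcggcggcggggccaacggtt
CENPA: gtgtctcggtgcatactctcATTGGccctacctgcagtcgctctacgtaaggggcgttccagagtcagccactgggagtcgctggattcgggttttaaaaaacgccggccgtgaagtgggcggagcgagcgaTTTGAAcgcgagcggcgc
PLK2: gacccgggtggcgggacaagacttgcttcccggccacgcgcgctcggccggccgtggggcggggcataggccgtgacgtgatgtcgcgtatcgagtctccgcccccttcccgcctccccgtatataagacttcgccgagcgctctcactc
In PLK1 the CHR begins 29 bases and the CCAAT 73 bases before the start, and in DEPDC1, whose CHR reads on the other strand, 27 and 52 bases before it. In CENPA the CHR lies 18 bases before the start, and a CCAAT on the other strand lies 130 bases before it. The PLK2 window holds neither.

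Of the 40 S-phase genes, 14 passed the minimum level and 11 of these were called lower, beside 12.8% of all genes compared, with medians of -1.31 in palbociclib and -1.22 in JQ1+palbociclib. Members such as CLSPN, at 5.49 CPM in low-score and 43.2 CPM in high-score cells of palbociclib, passed only through high-score cells, so the count describes those that passed. Members below the minimum did not all have lower levels: UNG, which removes uracil from DNA, was at log2 ratios of 0.21 and 0.80, and CDCA7 at 0.60 and 0.57. Besides TYMS and RRM2 the called members included CLSPN, the replication checkpoint adaptor, at log2 ratios of -2.98 and -1.68, and FEN1, the flap endonuclease, at -2.18 and -1.84. MCM4, a subunit of the replicative helicase, was near the median gene at -0.22 and -0.11. Of the 50 G2/M genes 30 passed the minimum, likewise often through high-score cells, and 29 of these were called lower. NDC80, a kinetochore protein below the minimum, was at -5.12 and -5.91. CBX5, a heterochromatin protein, was the exception at -0.51 and -0.46.

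In the list of G1 cyclins, their kinases, pocket proteins and E2F factors, 1 of 8 measured members was called lower, beside 12.8% of all genes compared: FOXM1, the forkhead factor that activates mitotic genes, at 7.96 and 39.5 CPM in palbociclib and 7.46 and 40.9 CPM in JQ1+palbociclib. CCND1, the D-type cyclin that activates the palbociclib targets, was at 226.7 CPM in low-score and 229.8 in high-score cells of palbociclib, and at 422.8 and 460.3 in JQ1+palbociclib. CDK6 had ratios of 1.07 (0.797 to 1.42) and 1.101 (0.871 to 1.39), and CDK4 of 0.706 and 0.794. CCND3, another D-type cyclin, had ratios of 1.09 and 0.877. RB1 was below the minimum level, as were the E-type cyclins that act with CDK2. CCNE1 had 21 UMIs in low-score and 16 in high-score cells of palbociclib and 54 and 40 in JQ1+palbociclib, and CCNE2 had 4 and 9 and then 21 and 12.

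Of 12 measured members of the list of CDK inhibitors and cell cycle exit genes, 3 of them CDK inhibitors, 2 were called lower and none higher, beside 12.8% and 0.449% of all genes compared: CDKN2C (p18), at 20.9 and 44.4 CPM in palbociclib and 12.9 and 29.9 CPM in JQ1+palbociclib, and CDKN2D (p19), at 23.3 and 72.1 and at 19.2 and 70.5 CPM. CDKN1A (p21), the inhibitor induced by p53, was at 31.8 CPM in low-score and 37.8 in high-score cells of palbociclib, a ratio of 0.841 (0.660 to 1.07). In JQ1+palbociclib it was at 38.6 and 36.9 CPM, a ratio of 1.05 (0.868 to 1.26). CDKN1B (p27) was below the minimum level, with 14 and 45 UMIs in palbociclib and 16 and 46 in JQ1+palbociclib. CDKN1C (p57) had 12 UMIs in low-score and 2 in high-score cells of palbociclib, a ratio of 7.75 (1.72 to 71.3), and 2 and 1 in JQ1+palbociclib. FOXO3, a forkhead factor tied to growth factor withdrawal, lay just under the limit at ratios of 1.69 and 1.49.

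Of the 18 genes higher in low-score cells, 10 were called again with cells thinned to 10000 UMIs and 13 with ranking within bins of UMI total. The 18 were a mixed group. They comprised USP53, ITGA10, AC006262.5, NABP1, ABCC3, PLK2, CTD-3184A7.4, SOX4, FBXO32, SYT12, PIK3R3 and ZBTB16, the 12 strongest, and CITED2, ARID5B, NEAT1, ZNF581, EPB41L4A-AS1 and AC093673.5. No member of any gene list was among them. USP53, a protein of the ubiquitin protease family found at tight junctions (hg19 chromosome 4, 120133742 to 120216673, plus strand), was at 58.5 CPM in low-score and 29.1 in high-score cells of palbociclib, a ratio of 2.01 (1.61 to 2.51). In JQ1+palbociclib it was at 34.9 and 15.1 CPM, a ratio of 2.31 (1.81 to 2.96). ITGA10, an integrin subunit that binds collagen (chromosome 1, 145524969 to 145543868, plus strand), had ratios of 1.92 (1.48 to 2.51) and 2.40 (1.89 to 3.06).

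ABCC3, an efflux transporter of conjugated organic anions (chromosome 17, 48712138 to 48769614, plus strand), was more abundant than either. It was at 134.5, 116.6, 87.4 and 68.9 CPM from the lowest to the highest bin of palbociclib, and at 143.5, 112.1, 91.0 and 79.7 CPM in JQ1+palbociclib. In thinned cells an ABCC3 UMI was seen in 71.1% of low-score and 45.7% of high-score cells of palbociclib (86.1% and 74.6% unthinned), and in 72.7% and 49.4% in JQ1+palbociclib (85.9% and 84.0% unthinned). As the libraries held a single cell line, no cell type without the gene was at hand to set the level of free RNA. SOX4, an HMG-box transcription factor (chromosome 6, 21593982 to 21598850, plus strand), had ratios of 1.72 (1.42 to 2.07) and 2.40 (2.08 to 2.77). Its level in palbociclib was 73.0 CPM in the lowest and 80.1 in the second bin, so it did not rise to the very end of the ranking there.

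Among the other genes called higher, PLK2, a Polo-like kinase that unlike PLK1 is expressed outside mitosis, had ratios of 1.83 (1.44 to 2.34) and 1.73 (1.495 to 1.99). FBXO32 (atrogin-1), a ubiquitin ligase component known from muscle atrophy, had ratios of 1.69 (1.34 to 2.12) and 2.01 (1.62 to 2.49). PIK3R3, a regulatory subunit of PI3-kinase, had ratios of 1.81 and 1.60, and CITED2, a co-regulator that binds CBP and p300, of 2.43 and 1.55. NABP1, a single-stranded DNA binding protein, had ratios of 2.16 and 1.82. NEAT1, the long noncoding RNA of paraspeckles, was by far the most abundant, at 3485, 3457, 2427 and 2238 CPM over the bins of palbociclib and 3046, 2648, 2096 and 1967 CPM in JQ1+palbociclib.

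Matrix genes were mostly above the median gene without passing the 1.5-fold limit in both libraries. Of 17 measured members none was called in either direction, with medians of 0.30 and 0.27 against -0.23 and -0.26 over all genes compared. FN1 (fibronectin) was at 312.1 and 236.4 CPM in palbociclib, a ratio of 1.32 (1.21 to 1.44), and at 402.8 and 226.5 CPM in JQ1+palbociclib, a ratio of 1.78 (1.67 to 1.90). COL1A1 had ratios of 1.27 (1.05 to 1.53) and 2.03 (1.63 to 2.53), and these intervals cover counting error only, with the difference between the 2 libraries not tested. Secreted factors tied to senescence differed between members, and none of 16 was called. IL6 had ratios of 1.73 (1.56 to 1.92) in palbociclib and of 1.24 (1.07 to 1.45) in JQ1+palbociclib. IL8 had the opposite order, with 1.16 (1.097 to 1.23) and 2.39 (2.13 to 2.68). TIMP1, the inhibitor of metalloproteinases and the most abundant member, had ratios below 1, of 0.719 and 0.573. H2AFJ, a histone variant that accumulates in senescent cells, had ratios of 0.908 and 1.07. MYC, the growth-promoting transcription factor, had ratios of 1.35 (1.27 to 1.44) and 1.24 (1.19 to 1.30).

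Counts in the metabolic and stress lists stand beside 12.8% of all genes compared that were called lower and 0.449% called higher. These counts use the 1.5-fold limit on the CPM scale, not centred on the median gene. In the list of hypoxia and glycolysis genes 4 of 12 measured members were lower, the glycolytic enzymes ENO1, PGK1, LDHA and TPI1, with ratios between 0.520 and 0.664. In palbociclib their log2 ratios were -0.76, -0.78, -0.61 and -0.59, against a median gene at -0.23. Each was thus less than 1.5-fold below the median gene there. In the other lists the called members were DDIT4 (1 of 11 in the ATF4 and unfolded protein response list), FDPS (1 of 7 sterol synthesis genes), CTSC (1 of 20 lysosomal genes), and FOSL1 and HSPA8 (2 of 15 immediate early and dissociation genes), and these were lower. Read against the median gene, CTSC, FOSL1 and HSPA8 fell short of 1.5-fold in both libraries and FDPS in JQ1+palbociclib. DDIT4 passed in both. No member was called among 5 p53 targets, 12 interferon-stimulated genes, 12 genes of the mitochondrial genome, 16 NRF2 targets and 40 ribosomal proteins.

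**Figure D4:**
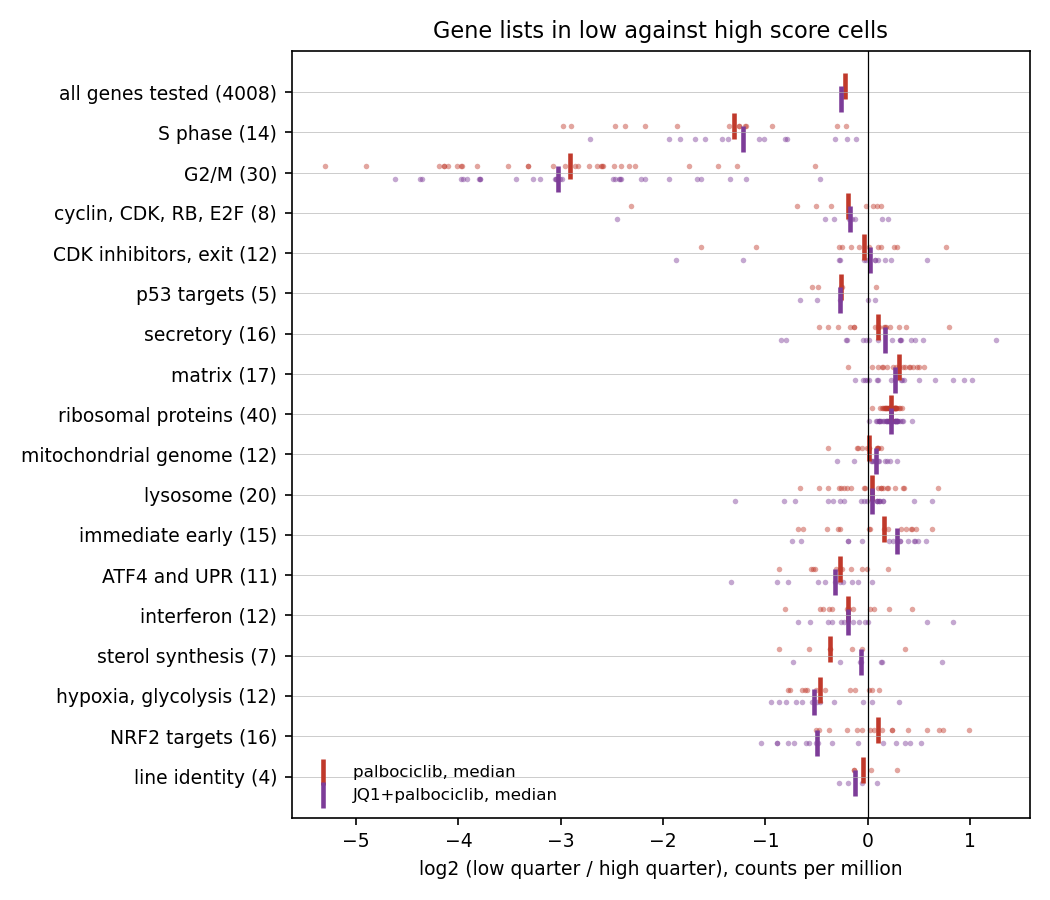
Log2 ratio of low-score to high-score cells (horizontal axis) for each measured gene of 17 lists (points) and the list median (vertical bars) in palbociclib (red) and JQ1+palbociclib (purple), with the median over all 4008 genes at the top. The number of genes measured stands in brackets. The S-phase and G2/M lists lie apart from the rest with medians of -1.31 and -2.91 in palbociclib, and the matrix and ribosomal lists lie above 0.

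Whether the same genes separate low-score from high-score cells without palbociclib was tested in the 6 libraries that the rule had not used. Each was ranked and divided in the same way, the bins were summed, and edgeR's quasi-likelihood test compared the low with the high bins with the library as a block. Of 6628 genes tested, 1448 were lower (21.8%) and 1719 higher (25.9%) at a Benjamini-Hochberg adjusted p under 0.05. All 515 genes lower in the palbociclib libraries were among those tested, and 486 of them (94.4%) were called lower, 514 having that sign. The ranking measures the cycle here too, so lower levels of cycle genes among these were set by how the bins were formed. All 18 genes called higher were called higher. Without TMM factors, which scale each sum by a trimmed mean of log ratios between sums, 2522 genes were lower and 660 higher, and 507 of the 515 and 18 of the 18 were still called in their direction.

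Named genes of both directions are given with their size in these 6 libraries. The edgeR sizes use TMM factors, with the median gene at 0.03 against -0.19 without them. They are thus not on the CPM scale of the ratios in the palbociclib libraries. For mitotic genes such as PLK1 and AURKA the direction was set by the ranking. PLK1 was lower in low bins by a log2 fold change of -3.48 ± 0.34 (SE, edgeR adjusted p = 6.3e-05) and AURKA by -3.33 ± 0.24 (adjusted p = 1.51e-05). ITGA10 was higher in low bins by a log2 fold change of 1.44 ± 0.10 (SE, edgeR adjusted p = 1.17e-05), and its log2 ratio on the CPM scale was above 0 in 6 of 6 libraries. FBXO32 was higher by 1.54 ± 0.19 (adjusted p = 0.000176) and ABCC3 by 1.35 ± 0.14 (adjusted p = 9.47e-05). USP53 was higher by 0.98 ± 0.16 (adjusted p = 0.000686). PIK3R3 and CITED2, although called, were slightly lower in the low bin of the paclitaxel library, with log2 ratios of -0.29 and -0.08. FN1 was higher by 0.95 ± 0.07 (adjusted p = 1.48e-05) and COL1A1 by 0.94 ± 0.16 (adjusted p = 0.00096).

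**Figure D5:**
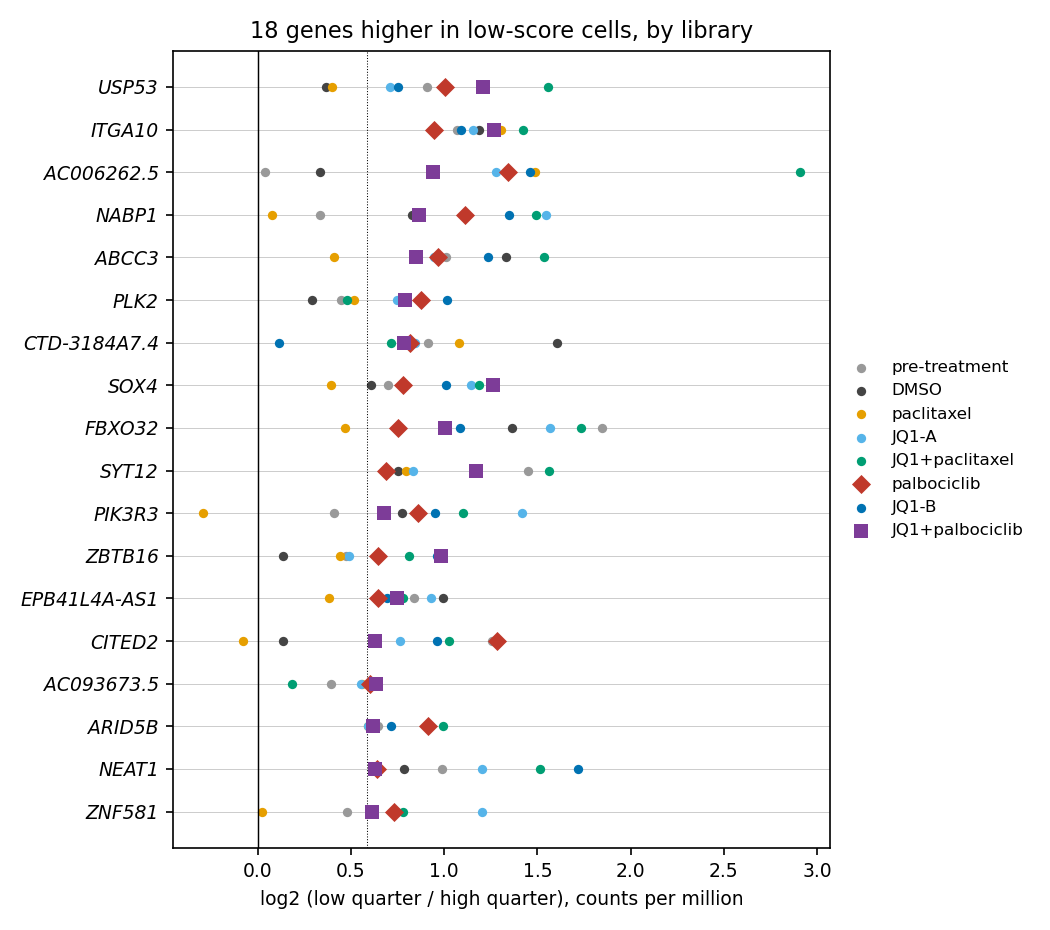
Log2 ratio of low-score to high-score cells (horizontal axis, CPM scale) of the 18 genes called higher in the palbociclib libraries, in each of the 8 libraries. Red diamonds are palbociclib, purple squares JQ1+palbociclib and circles the 6 libraries that the rule did not use, and the dotted line marks 1.5-fold. Apart from PIK3R3 and CITED2 in paclitaxel, every circle lies above 0.

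As groups, the fixed lists moved in the 6 libraries as follows. All 49 tested G2/M genes and 18 of 29 S-phase genes were lower, beside 21.8% of all genes. The bins were ranked on genes of the same phases, so these 2 counts describe the ranking and are no separate support. Ribosomal proteins were higher in 40 of 40 genes, and in 37 of 40 without TMM factors. Matrix genes were higher in 17 of 18, and in 14 of 18 without TMM factors. Counts of higher genes with TMM factors stand beside 25.9% of all genes, and those without them beside 660 of 6628 genes. Genes of CDK inhibition and cycle exit were higher in 9 of 16 and lower in 2, and without TMM factors 3 were higher. FTH1 was higher by 0.92 ± 0.06 (adjusted p = 1.26e-05).

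The difference between the 2 palbociclib libraries and the other 6 was then tested itself, as an interaction of bin with palbociclib exposure. The low bins entered with unlike scores, as given above, and the part of this in the difference was not tested. Of 6628 genes, 0 were called (0%) by edgeR and 0 by DESeq2. An unadjusted edgeR p under 0.05 was found for 123 genes towards a lower and 44 towards a higher ratio under palbociclib. Together these are a smaller share of the 6628 than the 0.05 that would fall under this p with no difference. Without the filter on low counts edgeR called 7 genes. The JQ1+palbociclib experiment alone has 1 library without palbociclib, too few to judge a spread, so no count is given for it. A difference with palbociclib was therefore called or not depending on the genes tested.

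CDKN1A shows how the values were spread. In the 6 libraries it was higher in low bins by 0.71 ± 0.17 (adjusted p = 0.00497), but it was no longer called with cells thinned to 10000 UMIs (0.40), without TMM factors (0.48) or without the library block (0.62). On the CPM scale its log2 ratio was 0.45 before treatment, 1.12 in DMSO and 1.60 in paclitaxel, the 3 libraries without JQ1 or palbociclib. The low bins of these 3 reached higher scores than those of the other libraries, and the part of this in the spread was not tested. In the libraries with JQ1 it was 0.04 in JQ1-A, -0.16 in JQ1+paclitaxel and 0.24 in JQ1-B, and in palbociclib and JQ1+palbociclib it was -0.25 and 0.07. The difference with palbociclib was -0.53 ± 0.32 (adjusted p = 1), which did not pass the test. CDK6 was higher in the 6 libraries by 0.77 ± 0.12 (adjusted p = 0.00068), with a difference under palbociclib of -0.40 ± 0.21 (adjusted p = 1). IL6 was higher by 1.36 ± 0.12 (adjusted p = 4.74e-05), with a difference of -0.54 ± 0.22 (adjusted p = 1).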

How the data were processed

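Per the labels and the study's methods, cells were encapsulated with 10x Genomics Chromium 3' chemistry, and the authors aligned reads to hg19 with Cell Ranger and analysed them in Seurat. The deposited table holds UMI counts, unnormalized, for 18955 genes in 5738 cells, and a second deposited file names the library of each cell and gives its count of UMIs. Library totals ran from 10621159 to 24240835 UMIs.

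Counts were summed per library and bin of 25% of cells, since cells of a library are not replicates, and scaled to CPM. Ratios carry exact conditional binomial intervals (95%), which cover counting error only. No doublet caller was run, as the cells are of a single line. Fits used edgeR 4.0.16 (TMM, quasi-likelihood) in R 4.3.3, with DESeq2 1.42.0 as an alternative, on genes averaging 10 CPM or more over the 16 sums of all 8 libraries. The tests were also run on simulated counts with known changes. Those counts were drawn without ranking cells, so they cannot show how the tests behave on bins chosen by a score. P-values measure the spread between the 6 or 8 libraries, whose replicate cultures had been pooled. Named genes were the 12 strongest per direction, the called list members, and 16 regulators and markers given whatever their value, to which other members of the lists were added after their values were seen. The members, lists and rules were chosen with earlier results of these data known.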

Additional observations from a re-analysis of the deposited data

Results flagged for a closer look

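AKR1C1, an aldo-keto reductase of steroid and carbonyl metabolism, moved in opposite directions in the 2 palbociclib libraries. Its log2 ratio of low-score to high-score cells was 0.73 in palbociclib (52.97 against 31.9 CPM) and -0.72 in JQ1+palbociclib (17.0 against 27.9 CPM). It was the 1 gene past 1.5-fold in both libraries with unlike signs, and with 1 library per treatment the difference was not tested. AKR1C2, whose sequence is nearly identical, was at 0.24 and -0.89, and reads of the 2 genes may not have been told apart. AKR1C3 was at 0.14 and -0.78. In the 6 other libraries AKR1C1 was not called (log2 0.46 ± 0.21, edgeR adjusted p = 0.0889).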

How the results depend on the processing

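The counts of 515 lower and 18 higher genes depended on the limits set. With the lowest and highest 10% of cells they were 907 and 41, with a looser fold limit 1268 and 82, with 2-fold 133 and 1, with a minimum mean of 5 CPM 980 and 100, with 50 CPM 236 and 5, and centred on the median gene 222 and 70. The study's cell filter, leaving out cells above the 95th percentile of UMIs, thinning, ranking within 5 bins of UMI total and a score without PCNA gave 384 to 520 lower and 13 to 20 higher genes, but not always the same ones. With cells thinned to 10000 UMIs, 323 of the 515 lower and 10 of the 18 higher genes were shared, and with ranking within bins of UMI total 339 and 13. Without thinning, the share of cells at or below the rank limit was 5.65% before treatment, 6.32% in DMSO, 0.532% in paclitaxel, 32.4% in JQ1-A, 33.9% in JQ1+paclitaxel, 24.96% in palbociclib, 26.6% in JQ1-B and 26.0% in JQ1+palbociclib.

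Labels number no cultures, so the block was the library, which ties the low and the high bin of the same cells. With no replicate block, edgeR called 699 genes in the 6 libraries in place of 3167, and 226 lower and 12 higher members. Within the JQ1+paclitaxel experiment it called 2038. Leaving out each library in turn gave 2561 to 3193 genes, and all 18 higher members were called each time. The difference with palbociclib rose from 0 called genes to 7 without a filter on low counts and to 45 within the JQ1+palbociclib experiment, which has a single library without palbociclib. It stayed at 0 without any library in turn. Library totals without TMM factors, an alternative chosen after seeing the data, turned H2AFJ from 0.21 to -0.0156. For the causes of these changes no test was made. In the grouping used, experiment and palbociclib exposure are partly confounded, and depth limits genes under about 20 CPM.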

Other observations

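Other gene families, picked by symbol after their values were seen, are given without a test in the palbociclib libraries, beside 12.8% of the 4008 genes compared that were called lower and 2663 that were below 0 in both libraries. Tubulins were picked as alpha and beta symbols with a number after the letter, which leaves out TUBB. All 7 measured genes so picked were at least 1.5-fold lower in both libraries, with medians of -1.06 and -1.09. TUBB4B among them is also on the G2/M list. TUBA1B fell from 1121 CPM in high-score to 449.6 CPM in low-score cells of palbociclib and from 1019 to 477.4 CPM in JQ1+palbociclib. Of 36 proteasome subunits 16 passed that limit and all 36 were below 0 in both libraries. PSMA4, a subunit of the proteasome core, was at -1.01 and -1.47. The chaperonin CCT had 4 of 7 members past the limit and mitochondrial ribosomal proteins 17 of 65, among them MRPL13 at -0.96 and -1.58. Complex I had 2 of 39 members past the limit, ATP synthase 0 of 16 and translation initiation factors 4 of 39. The chaperone HSP90AA1 was at -0.89 and -1.43.

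Cytosolic ribosomal proteins went the other way, with medians of 0.21 and 0.21 over 79 genes and 0 past the limit. The families were also tested with edgeR (adjusted p under 0.05) in the 6 libraries that the rule did not use. Called lower were 29 of 41 proteasome subunits, 6 of 7 tubulins picked as above, 6 of 7 CCT subunits and 44 of 72 mitochondrial ribosomal proteins. Called higher were 78 of 81 cytosolic ribosomal proteins, and of all genes 21.8% were lower and 25.9% higher. Of 47 translation initiation factors 14 were lower and 11 higher. Without TMM factors, where 2522 of 6628 genes were lower and 660 higher, the counts in the same order were 35, 7, 7, 63 and 69 for the first 5 families named. Low-score cells were shallower and had a higher mitochondrial share, and the part of depth in these family values was not tested. Members of the NRF2 list divided in JQ1+palbociclib, where HMOX1, which degrades heme, was at 0.36 and GCLM, of glutathione synthesis, at -1.04, with 0.98 and -0.48 in palbociclib.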
